A study of Mus musculus with 13 samples.

Results

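The effect of losing Tifab was measured over all 13 RNA sequencing libraries of a mouse transplantation study, by setting the 7 libraries that lack Tifab against the 6 that have it. The RNA came from LK cells of the bone marrow, which lack lineage markers and Sca-1 and carry c-kit, the fraction that holds the committed myeloid, erythroid and megakaryocyte progenitors. The libraries lacking Tifab were 3 TIFAB_KO libraries (donor marrow TIFAB-/-;miR146a+/+) and 4 dKO libraries (donor marrow TIFAB-/-;miR146a-/-). Those with Tifab were 3 WT libraries (donor marrow TIFAB+/+;miR146a+/+) and 3 miR-146a_KO libraries (donor marrow TIFAB+/+;miR146a-/-). In every group the marrow had been given to Boy/J hosts irradiated with 7.0 Gy and, 3 hours later, 4.75 Gy, and the labels name mice aged 2 to 5 months. All comparisons are therefore between chimeras, and host cells that survived can be present in any library. The labels state 3 mice per group but give 4 dKO libraries, and they do not say that each library is 1 mouse. The p-values below thus measure the spread between libraries.

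TIFAB is a relative of the adaptor TIFA that lowers signalling through TRAF6, the ubiquitin ligase that passes Toll-like and interleukin-1 receptor signals to NF-kB. It has also been linked to the deubiquitinase USP15 and through it to p53. The gene lies in the part of the genome that corresponds to the segment of human chromosome 5q lost in del(5q) myelodysplastic syndrome. The microRNA miR-146a, encoded on the same human chromosome arm, represses Traf6 and Irak1. Its mature mouse strand is shown because its presence or absence is what separates the genotypes that are pooled here. The capitals mark the seed, bases 2 to 8, in the RefSeq entry on GRCm38.p6 at chr11:43374435-43374456, minus strand.
mmu-miR-146a-5p: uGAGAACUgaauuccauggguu

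The model was additive. Each gene had 1 coefficient for the loss of Tifab and 1 for the absence of miR-146a, so a log2 fold change below is the mean difference, lacking minus with Tifab, at a given miR-146a state. Levels are log2 CPM, in which reads are scaled to the total of the library. The test took the 11867 genes whose average level reached 0 log2 CPM, and a gene was called at a Benjamini-Hochberg adjusted p under 0.05 in limma. Results are also given within the states, TIFAB_KO against WT where miR-146a is present and dKO against miR-146a_KO where it is absent, which share no library.

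The libraries lacking Tifab held 8075318 to 12787982 reads and those with it 7826843 to 11993355 reads. The share of reads from 45S pre-rRNA, which varies with the RNA and its preparation, was 4.36 to 10.7% in libraries lacking Tifab and 3.85 to 9.09% in those with it. TIFAB_KO replicate 3 and dKO replicate 3 stood somewhat apart, with the lowest median correlation with the other libraries (the lowest was 0.947). Kit, the receptor used for the sort, was at 8.08 to 8.84 log2 CPM in libraries lacking Tifab and 8.43 to 8.83 in those with it. Ly6a, which encodes Sca-1, was at -0.61 to 2.42 log2 CPM in libraries lacking Tifab and 0.36 to 1.61 in those with it. Of the lineage genes, Cd3e, Cd8a, Ms4a1 and Cd79a were at no more than 1.39 log2 CPM in any library, Cd4 reached 2.36, and Itgam, which myeloid progenitors also use, reached 6.49. The adult globin rows Hba-a1 and Hbb-bt had 0 reads in all 13 libraries. The row of the miR-146a gene had 0 reads in every library, so it does not check the miR-146a genotype.

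Loss of Tifab, pooled over both miR-146a states, was accompanied by lower transcript of Tifab itself and of H2afy, the gene beside it on chromosome 13, and by no other called gene. These 2 genes are 0.0169% of those tested, both were lower, and 0 were higher in limma. At an unadjusted p under 0.05 there were 241 genes (2.03%), 124 higher (1.04%) and 117 lower (0.986%). With single libraries left out this count was 188 to 500, with 371 without TIFAB_KO replicate 1 and 500 without dKO replicate 4, so the shares used as background move as well. By direction it was 94 to 289 higher and 94 to 224 lower. A log2 fold change of at least 1 in size was found for 58 genes (0.489%). limma-voom on the recovered reads called the same 2 genes. The count was 4 without WT replicate 1 (Hspb1 and Hsph1 added, both lower) and 4 without dKO replicate 4 (Ncam1 and Pisd-ps3 added, both higher).

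Tifab, the gene lost, lies at chr13:56173704-56178885 on the minus strand (mm10). Its level was 1.72 to 3.69 log2 CPM, median 3.17, in the 7 libraries lacking it and 5.31 to 6.15, median 5.82, in the 6 with it, from 28 to 164 and 386 to 746 reads. The groups did not overlap, and no library carried a level that went against its label. The log2 fold change was -2.84 ± 0.28 (SE), with an adjusted p of 2.72e-05 in limma. Over the 700 arrangements of Tifab labels within miR-146a states, the exact permutation test, two-sided, gave p = 0.00143, the smallest it can give. The residue in each state was as follows. Mean CPM in TIFAB_KO libraries was 11.2, which is 25.9% of the 43.1 in WT libraries, and in dKO libraries it was 6.16, which is 9.04% of the 68.1 in miR-146a_KO libraries. The log2 fold changes were -1.95 ± 0.22 for TIFAB_KO minus WT and -3.61 ± 0.33 for dKO minus miR-146a_KO. Their difference of -1.66 ± 0.43 had an unadjusted p of 0.00111 and an adjusted p of 0.599 in limma, so it did not pass. Which exons the Tifab allele lacks is not known from the labels, and whether the remaining reads come from the allele or from host cells was not tested.

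H2afy encodes the macroH2A1 histone variant, which replaces H2A in silent chromatin, and it too belongs to the segment lost in del(5q) disease. It lies at chr13:56073619-56136361 on the minus strand, with 37342 bases between the annotated ends of the 2 genes. Its level was 8.18 to 8.72 log2 CPM, median 8.34, in the 7 libraries lacking Tifab and 9.27 to 9.60, median 9.53, in the 6 with it. The groups were 0.55 log2 apart at their nearest libraries, TIFAB_KO replicate 1 and WT replicate 1. The log2 fold change was -1.08 ± 0.11, with an adjusted p of 2.72e-05 in limma and an exact permutation p of 0.00143. In linear terms, mean CPM was 340 in TIFAB_KO libraries, 48.4% of the 702 in WT libraries, and 343 in dKO libraries, 46.6% of the 735 in miR-146a_KO libraries. The log2 fold changes were -1.06 ± 0.19 for TIFAB_KO minus WT and -1.11 ± 0.13 for dKO minus miR-146a_KO, with an unadjusted interaction p of 0.847 in limma. Within the 6 miR-146a-present libraries alone the adjusted p was 0.105, so those libraries did not call it on their own. H2afy had 2819 to 3906 reads in libraries lacking Tifab and 5178 to 8170 in those with it.

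**Figure D1:**
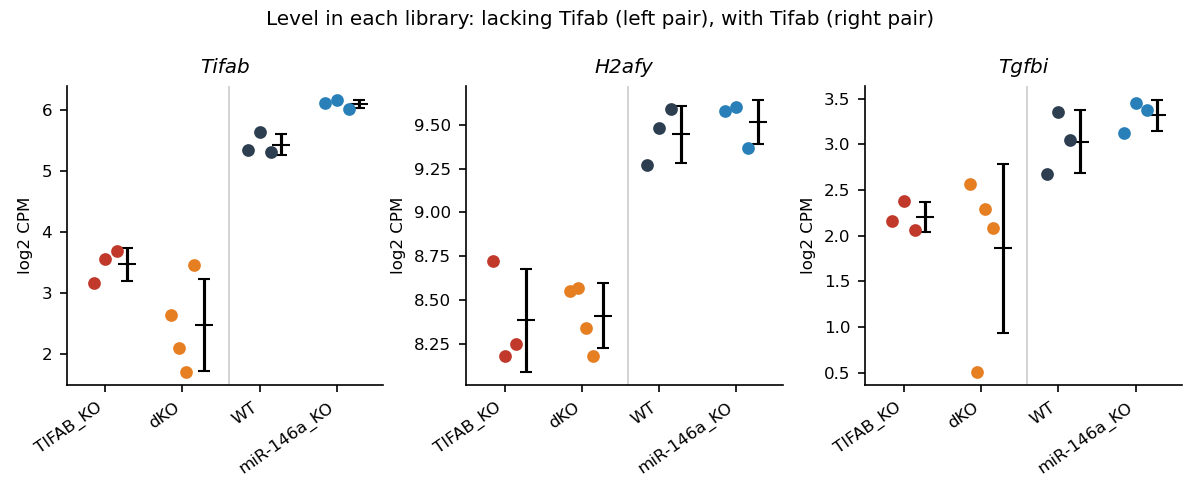
Level of Tifab, H2afy and Tgfbi in log2 CPM (y axis) in each library, by genotype (x axis); points are libraries and black bars the mean and SD of a genotype. All 7 libraries lacking Tifab lie below all 6 with Tifab in each panel, and for Tgfbi the highest library lacking Tifab is at 2.57 and the lowest with Tifab at 2.67.

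The start regions of the 2 called genes are separate sequences, shown here because the genes are neighbours on the same strand and changed together. Each is 100 bases from the RefSeq promoter table (GRCm38.p6), 5′ to 3′ on the minus strand, with CG dinucleotides in capitals. The Tifab stretch, chr13:56178886-56178985, ends directly at the RefSeq start, and the H2afy stretch, chr13:56135632-56135731, ends 81 bases before it, outside the exons of the gene in GENCODE M21 but within the span of the annotated transcript that starts farthest upstream.
Tifab: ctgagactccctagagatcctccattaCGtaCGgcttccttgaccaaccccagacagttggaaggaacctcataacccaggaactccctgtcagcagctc
H2afy: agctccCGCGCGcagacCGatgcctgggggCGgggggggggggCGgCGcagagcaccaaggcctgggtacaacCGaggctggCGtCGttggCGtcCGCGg
The Tifab stretch holds 2 CG dinucleotides at 54% G and C, and the H2afy stretch 13 at 77%. The data hold no readout on either promoter.

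Tgfbi, a secreted matrix protein induced by TGF-beta and the next gene of the locus to separate the groups, starts 431 kb beyond Tifab at chr13:56609523-56639562, plus strand. Its level was 0.51 to 2.57 log2 CPM, median 2.16, in libraries lacking Tifab and 2.67 to 3.45, median 3.24, in those with it. All 7 lay below all 6, by 0.10 log2 at the nearest. The log2 fold change of -1.16 ± 0.28 had an unadjusted p of 0.000555 and an adjusted p of 0.841 in limma and did not pass. It was -0.82 ± 0.32 for TIFAB_KO minus WT and -1.46 ± 0.43 for dKO minus miR-146a_KO, and -0.91 to -1.27 when each library was left out in turn, nearest 0 without dKO replicate 2.

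Beyond these 3 genes no neighbour of Tifab within 1 Mb reached the unadjusted threshold. Of 22 tested genes that start within 1 Mb, 3 had an unadjusted p under 0.05, all lower, and these are the 3 genes above. The other 19 lay between -0.47 (Mxd3, a partner of MAX) and 0.30 (Dok3, an adaptor of myeloid receptors). Smad5, a transducer of BMP signals that lies beyond Tgfbi, had a log2 fold change of 0.07 ± 0.10. Pcbd2 and Txndc15, tested genes on the other side of H2afy, had -0.01 ± 0.18 and 0.07 ± 0.17. Within 5 Mb, 66 genes were tested and 1 further gene had an unadjusted p under 0.05. This was Ctla2a, a cysteine protease inhibitor, with -0.39 ± 0.15. On chromosome 13 as a whole, 11 of 459 tested genes (2.40%) had an unadjusted p under 0.05, against 2.03% over all genes. The list of orthologs of genes lost in del(5q) disease holds 33 symbols, among them H2afy and its other name Macroh2a1, which was not found. Of the 28 tested genes, 2 were called, against 0.0169% of all tested genes. These were Tifab and H2afy themselves. The median was -0.04 pooled, -0.05 for TIFAB_KO minus WT and -0.01 for dKO minus miR-146a_KO, against -0.01 pooled over all tested genes.

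**Figure D2:**
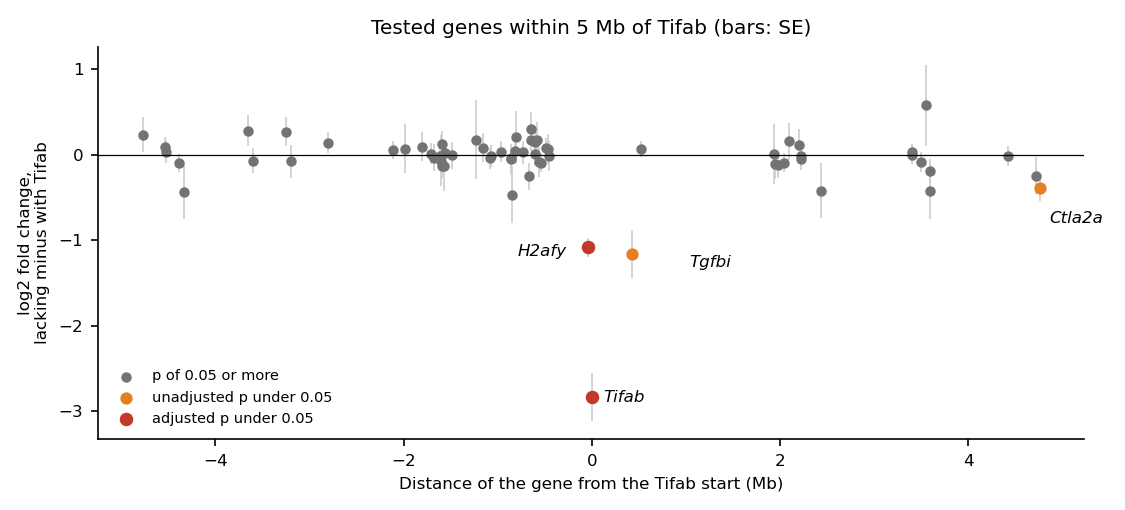
Log2 fold change, lacking minus with Tifab (y axis, bars are SE), against the distance of each gene's start from the Tifab start in Mb (x axis) for the 66 tested genes within 5 Mb. Tifab at -2.84 and H2afy at -1.08 are the called genes, Tgfbi at -1.16 is beyond the unadjusted threshold only, and the other 63 lie between -0.47 and 0.58.

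None of the partners of TIFAB passed the test at the transcript level. All 24 genes of the TIFA and TRAF6 list were tested, and Tifab was the one member called and the one with an unadjusted p under 0.05. The median of the list was -0.02 pooled, 0.02 for TIFAB_KO minus WT and -0.00164 for dKO minus miR-146a_KO, against -0.01 pooled over all tested genes. Tifa, the adaptor that activates TRAF6, was at 4.23 to 5.25 log2 CPM in libraries lacking Tifab and 4.73 to 5.00 in those with it, with a log2 fold change of 0.07 ± 0.15. Traf6, the ligase itself, had a mean of 7.27 ± 0.36 log2 CPM in libraries lacking Tifab and 7.33 ± 0.18 in those with it (SD, n = 7 and 6), a log2 fold change of -0.08 ± 0.13. For Irak1, a kinase of the same complex and a target of miR-146a, it was 0.02 ± 0.09, and for Usp15 -0.06 ± 0.11. Tnfaip3, which encodes the NF-kB inhibitor A20, had the lowest value after Tifab, -0.55 ± 0.33. That value joined -1.44 in TIFAB_KO minus WT to 0.23 in dKO minus miR-146a_KO.

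Genes that NF-kB induces were below 0 more often with miR-146a (24 of 32 tested in TIFAB_KO minus WT) than without (14 of 32 in dKO minus miR-146a_KO), a difference that was not tested over the list. Over all 11867 tested genes, 6217 and 6195 were below 0 in these states. The mean deviation of the 32 genes from their means was 0.14, -0.52 and -0.48 in TIFAB_KO libraries and 0.07, 0.38 and 0.21 in WT libraries. TIFAB_KO replicate 1 thus lay within the WT range. Of the 32 tested genes of the NF-kB and Toll-like receptor response list, 24 had a negative pooled log2 fold change, against 53.6% of all tested genes, 12 were negative in both states, against 24.8%, and 0 were called. Their median was -0.23 pooled, -0.30 for TIFAB_KO minus WT and 0.01 for dKO minus miR-146a_KO. An unadjusted interaction p under 0.05 was found for 3 members, against 4.23% of all tested genes. The pooled median was -0.14 without TIFAB_KO replicate 2. An unadjusted pooled p under 0.05 was found for 3 of the 32 members, all lower, against 0.986% of all tested genes. They were the chemokine genes Ccl4 (-0.46 ± 0.17) and Cxcl10 (-0.94 ± 0.44) and the activation marker Cd83 (-1.29 ± 0.57). With single libraries left out the number of such members was 1 to 13, with 13 without dKO replicate 3, 9 without miR-146a_KO replicate 2 and 8 without TIFAB_KO replicate 1. It was 1 without WT replicate 2, WT replicate 3, TIFAB_KO replicate 3 or dKO replicate 2, and 2 or 3 without each other library. Ccl4 was at 2.89 to 3.42 log2 CPM in libraries lacking Tifab and 3.11 to 3.78 in those with it, and the groups overlapped. The 16 NF-kB subunits and kinases had a median of -0.07 pooled, -0.22 for TIFAB_KO minus WT and -0.01 for dKO minus miR-146a_KO, with -0.77 ± 0.47 for Relb and 0.41 ± 0.21 for the kinase gene Ikbke at the ends.

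Genes of the cytosolic heat shock response, the chaperones that HSF1 induces when proteins unfold, were mostly below 0 in both states. Their list also includes Hspd1 and Hspe1, whose products are mitochondrial, and the counts below cover them. All 20 listed genes were tested, and 19 had a negative log2 fold change, against 53.6% of all tested genes. Of these, 8 had an unadjusted p under 0.05, against 0.986% of all tested genes, and 0 were called. The median was -0.24 pooled, -0.19 for TIFAB_KO minus WT and -0.25 for dKO minus miR-146a_KO. In both states at once 14 of the 20 were negative, against 24.8% of all tested genes. None of the 20 had an unadjusted interaction p under 0.05, against 4.23% of all tested genes.

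Bag3, a partner of HSP70 that directs clients to degradation, was at 4.58 to 5.07 log2 CPM, median 4.93, in libraries lacking Tifab and 5.08 to 6.29, median 5.47, in those with it. All 7 lay below all 6, the nearest by 0.01 log2 (WT replicate 1). Its log2 fold change was -0.72 ± 0.16, with an unadjusted p of 0.000179 and an adjusted p of 0.511 in limma. The HSP40 genes Dnajb4 and Dnajb1 had -0.69 ± 0.17 and -0.85 ± 0.23, and in both the groups overlapped. Dnajb1 was at 7.71 to 8.43 log2 CPM, median 8.17, in libraries lacking Tifab and 7.84 to 9.72, median 8.84, in those with it. Bag3, Dnajb1 and Dnajb4 each had an unadjusted p under 0.05 in both states separately. Zfand2a, a stress-induced proteasome partner that is not on the list and was picked after its value was seen, did likewise, with -0.69 ± 0.22.

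Hspb1, the small heat shock protein, had the lowest log2 fold change of the list, -2.02 ± 0.53. Its levels were -0.90, 0.66 and 1.73 log2 CPM in TIFAB_KO libraries and 1.98, 2.46, 2.68 and 2.19 in dKO libraries. They were -0.19, 4.33 and 2.75 in WT libraries and 5.40, 4.30 and 3.91 in miR-146a_KO libraries. Thus WT replicate 1 was as low as the TIFAB_KO libraries, while every miR-146a_KO library exceeded every dKO library. Hsph1, the HSP110 exchange factor, had -0.81 ± 0.24, and its levels of 8.16 to 9.38 log2 CPM in libraries lacking Tifab overlapped 7.77 to 10.4 in those with it through WT replicate 1. Hspa1a and Hspa1b, the inducible HSP70 genes, are near-identical copies whose reads may be divided between them arbitrarily. Hspa1a was at 6.87 to 7.45 log2 CPM in dKO libraries and 8.22 to 9.13 in miR-146a_KO libraries, and within that state it was called, with -1.48 ± 0.20 and an adjusted p of 0.0169 in limma. Hspb1 was called there as well, with -2.21 ± 0.33 and an adjusted p of 0.0437.

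In the other state 2 libraries stood apart. Hspa1a was at 4.30, 7.16 and 6.96 log2 CPM in TIFAB_KO libraries and 1.61, 8.65 and 7.84 in WT libraries, so replicate 1 was the lowest of each group. The mean deviation of the 20 chaperone genes from their means was -0.75 in TIFAB_KO replicate 1 and -0.88 in WT replicate 1. It was -0.28 to 0.00 in the other 6 libraries lacking Tifab and 0.26 to 0.67 in the other 5 with it. Without WT replicate 1, Hspb1 (-2.55 ± 0.40) and Hsph1 (-1.09 ± 0.14) passed, with adjusted p of 0.0131 and 0.00130 in limma. Without both replicates 1, limma called 6 genes, which were Tifab, H2afy, Hspa1a, Hspa1b, Hspb1 and Hsph1. These 2 libraries were picked by their chaperone levels after those were seen, so that count describes the remaining 11 libraries and is no independent test. With each library left out in turn, the list median was -0.30 to -0.21 and the number of members with an unadjusted p under 0.05 and a lower level was 6 to 11.

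**Figure D3:**
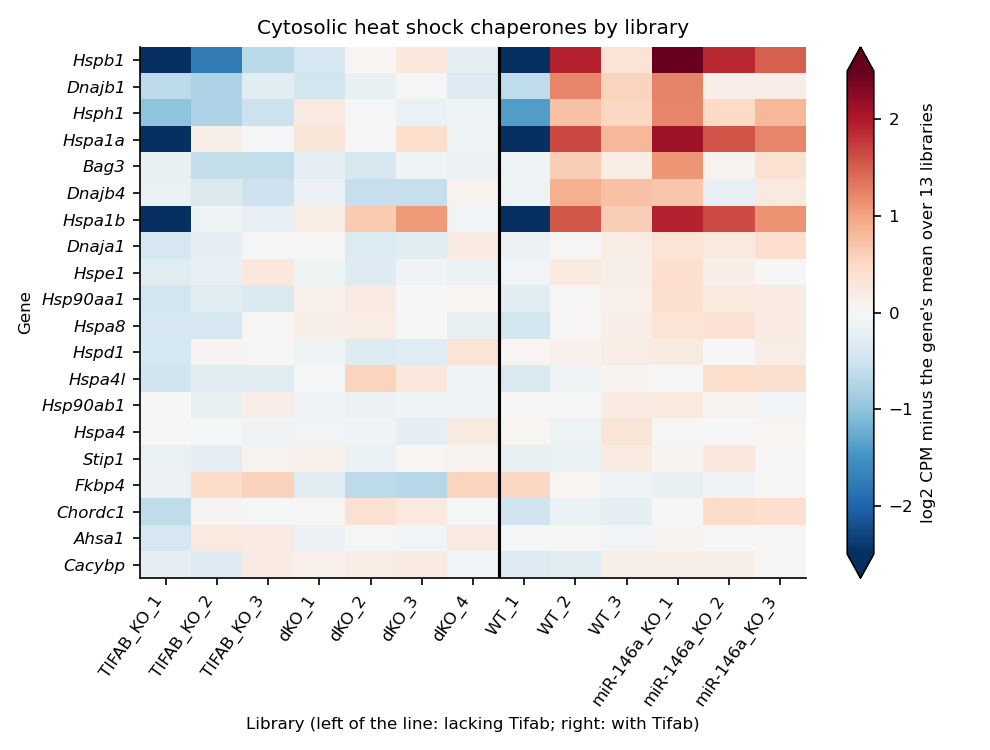
Level of each of the 20 listed heat shock chaperone genes (rows, ordered by pooled log2 fold change) in each library (columns), as log2 CPM minus the gene's mean over 13 libraries, with colours capped at 2.5. Libraries lacking Tifab stand left of the line; WT replicate 1 and TIFAB_KO replicate 1 are the darkest blue for Hspb1, Hspa1a and Hspa1b, and the other 5 libraries with Tifab are red for Hspb1, Dnajb1, Hsph1 and Hspa1a.

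Values within and beside the list varied with the chaperone. In the list, Hsp90ab1, the constitutive HSP90, and Hspa4, Stip1, Ahsa1 and Cacybp had log2 fold changes between -0.15 and 0.01. The mitochondrial chaperonin pair Hspd1 and Hspe1, which face away from each other across a shared promoter, had -0.23 ± 0.12 and -0.28 ± 0.11. The 20 chaperones and stress genes of the endoplasmic reticulum had a pooled median of -0.06, with 0.16 for TIFAB_KO minus WT and -0.29 for dKO minus miR-146a_KO. Of these 20, 14 were above 0 in TIFAB_KO minus WT and 0 in dKO minus miR-146a_KO, against 5650 and 5672 of all 11867 tested genes. An unadjusted interaction p under 0.05 was found for 6 of the 20, against 4.23% of all tested genes. Among the 20 genes Ddit3, the stress factor CHOP, and Herpud1 had unadjusted pooled p under 0.05, with -0.47 ± 0.18 and -0.39 ± 0.17.

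HSF1 binds inverted repeats of GAA blocks, and such repeats lie upstream of several of these genes. Windows of 250 bases before the RefSeq start (GRCm38.p6) were searched on both strands for a pair of blocks, GAANNTTC or TTCNNGAA. A pair was found for 9 of the 17 listed genes with a start in the table (52.9%), against 1102 of 8972 tested genes (12.3%) and 3932 of all 27025 genes (14.5%). The list names genes that HSF1 induces, so its share does not bear on the loss of Tifab. Bag3 and Dnajb1 had no pair in this window. The runs below are those of the genes with the largest log2 fold changes and of the chaperonin promoter, 5′ to 3′ on the strand of the named gene, with the blocks in capitals.
Hspb1: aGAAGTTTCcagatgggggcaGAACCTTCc
Hsph1: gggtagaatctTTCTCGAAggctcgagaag
Dnajb4: ttcgttcgctgTTCTAGAAagtaca
Hspa1a: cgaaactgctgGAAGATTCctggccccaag
Hspd1: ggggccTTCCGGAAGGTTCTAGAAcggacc
They lie at chr5:135887801-135887830 (plus strand), chr5:149636351-149636380 (minus), chr3:152193846-152193870 (minus), chr17:34972242-34972271 (minus) and chr1:55088053-55088082 (minus), in the order given. The Hspa1b run has the same letters as that of Hspa1a. The Hspd1 run, with 3 overlapping pairs, holds a continuous array of at least 3 blocks (GAANNTTCNNGAA or TTCNNGAANNTTC), which 139 of 27025 genes (0.514%) carry. A match of letters is a description and no evidence of binding.

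Apart from chaperones, 3 further groups of stress and hormone response genes had mostly negative pooled values. Of 28 tested AP-1, EGR and other immediate early factors, 26 were below 0 pooled, against 53.6% of all tested genes. Below 0 were 26 in TIFAB_KO minus WT, 13 in dKO minus miR-146a_KO and 12 in both, the last against 24.8% of all tested genes. An unadjusted interaction p under 0.05 was found for 9 of the 28, against 4.23% of all tested genes. The pooled median of -0.21 joined -0.61 for TIFAB_KO minus WT to 0.01 for dKO minus miR-146a_KO. It was -0.12 without TIFAB_KO replicate 2 and -0.39 without miR-146a_KO replicate 2. Fosb, for instance, was at 7.01 to 8.77 log2 CPM in libraries lacking Tifab and 7.20 to 9.19 in those with it, with -1.29 ± 0.34 in TIFAB_KO minus WT and -0.19 ± 0.26 in dKO minus miR-146a_KO. Of 17 tested genes induced by glucocorticoids, 15 were below 0, with a median of -0.24 pooled, -0.20 for TIFAB_KO minus WT and -0.19 for dKO minus miR-146a_KO. Of the 17, 6 were below 0 in both states, against 24.8% of all tested genes, while 53.6% of all tested genes were below 0 pooled. The median was -0.13 without WT replicate 2. Its members with the smallest p were Errfi1, an inhibitor of EGF receptor signalling (-0.94 ± 0.28), Crip1 (-0.41 ± 0.14) and Tsc22d3, also called GILZ (-0.52 ± 0.20). None of these genes was called.

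Of 25 tested p53 targets, 20 had a negative log2 fold change, against 53.6% of all tested genes, and 14 were negative in both states, against 24.8%. Below 0 were 23 in TIFAB_KO minus WT and 15 in dKO minus miR-146a_KO, against 6217 and 6195 of all 11867 tested genes. The median was -0.16 pooled, -0.30 for TIFAB_KO minus WT and -0.03 for dKO minus miR-146a_KO, and -0.10 pooled without WT replicate 3. The mean deviation of the list was -0.45 to 0.05 in the 7 libraries lacking Tifab and 0.08 to 0.20 in the 6 with it, so the ranges did not overlap. The nearest were dKO replicate 1 at 0.05 and miR-146a_KO replicate 1 at 0.08. The list of del(5q) orthologs did not overlap either, at -0.19 to -0.02 and 0.02 to 0.20. It includes Tifab and H2afy, whose own levels separate the groups, so this is no separate result. The list was not scored without them. For every other gene list scored the ranges overlapped, so the p53 list stands out among many that were looked at. Over all tested genes the mean deviation was -0.19 to 0.08 in libraries lacking Tifab and -0.07 to 0.09 in those with it. TIFAB_KO replicate 3 was the lowest library both there and for the p53 targets. Perp, a membrane protein that p53 induces in dying cells, was at 0.74 to 2.44 log2 CPM, median 1.02, in libraries lacking Tifab and 1.83 to 3.20, median 2.22, in those with it. In 6 of the 7 it lay below every library with Tifab, the exception being TIFAB_KO replicate 1. Its log2 fold change was -1.09 ± 0.28, with an unadjusted p under 0.05 in each state alone. Plk2 had -0.67 ± 0.29 and Cdkn1a, the cell cycle inhibitor p21, -0.59 ± 0.26. Mdm2 and Bax, targets as well, had -0.21 ± 0.13 and 0.02 ± 0.20. None was called, and Trp53 itself had 0.01 ± 0.15.

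Genes with the smallest unadjusted p on the higher side were scattered in function, and none passed. Ncam1, a neural cell adhesion molecule also found on some haematopoietic cells, was at 3.10 to 4.75 log2 CPM, median 4.45, in libraries lacking Tifab and 2.33 to 3.73, median 2.92, in those with it. The libraries lacking Tifab that overlapped were TIFAB_KO replicate 3 and dKO replicate 4. Its log2 fold change was 1.20 ± 0.26 with an adjusted p of 0.511 in limma, and without dKO replicate 4 it was 1.41 ± 0.21 and passed, with an adjusted p of 0.00538. Stard6, a lipid transfer protein gene of low level here, was at 1.84 to 2.60 log2 CPM in libraries lacking Tifab and -3.97 to 1.14 in those with it, with 0 reads in miR-146a_KO replicate 3. All 7 lay above all 6, which held for 3 genes of 11867 (0.0253%), the others being Kif21a, a kinesin, and St6gal1, a sialyltransferase, which are named after their values were seen. Its log2 fold change was 2.77 ± 0.61, made up of 1.13 ± 0.41 in TIFAB_KO minus WT and 4.21 ± 0.84 in dKO minus miR-146a_KO. The pooled level of Pisd-ps3 differed by 0.64 ± 0.14, but this is a pseudogene that may take reads from its parent Pisd.

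The other genes named on the higher side had these values. Aoah, an enzyme that inactivates bacterial lipopolysaccharide, was at 4.28 to 5.09 log2 CPM, median 4.56, in libraries lacking Tifab and 2.90 to 4.64, median 3.80, in those with it (log2 fold change 0.85 ± 0.21). Mmp8, the collagenase of neutrophil granules, was at 2.13 to 3.22 and 0.98 to 2.21 log2 CPM in libraries lacking and having Tifab (0.96 ± 0.25). Cd68, a lysosomal protein of macrophages, had 0.45 ± 0.13. Itga1, a collagen receptor subunit, had 0.70 ± 0.20, and Trmt12, a tRNA-modifying enzyme, 0.74 ± 0.22. Abcc2, an export pump, and Pls3, an actin-bundling protein, had 1.40 ± 0.39 and 0.94 ± 0.26. The summed level of 6 macrophage markers (C1qa, C1qb, C1qc, Vcam1, Cd5l and Mrc1) was 15.8 to 84.8 CPM, median 55.1, in libraries lacking Tifab. In those with it the sum was 7.64 to 37.5 CPM, median 23.9. Most of its reads were of Vcam1, with 3620 over all libraries against 786 for Mrc1, the next of the 6. Vcam1 alone reached 82.0 CPM in a library lacking Tifab. Mrc1 was at -0.66 to 3.99 log2 CPM in libraries lacking Tifab and 1.07 to 2.72 in those with it. None of the 6 was at 0 in all libraries, C1qa was at 0 in 4 of 7 and 3 of 6 libraries, and the part of such cells in the result was not tested. In a bulk library, more cells of a type and more RNA of that type per cell cannot be told apart.

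On the lower side, all 7 libraries lay below all 6 for 8 genes (0.0674%). Besides Tifab, H2afy, Tgfbi and Bag3 these were Spg7, a mitochondrial protease, with -0.37 ± 0.12, Mad2l1bp, which takes apart the spindle checkpoint complex, with -0.79 ± 0.25, Urm1, a ubiquitin-like sulfur carrier, with -0.42 ± 0.18, and the noncoding Mkln1os, with -0.82 ± 0.38. They are named because their groups did not overlap, after the values were seen. Spg7 was at 4.12 to 4.37 log2 CPM in libraries lacking Tifab and 4.44 to 4.95 in those with it. Rbm44, an RNA-binding protein gene, had -1.89 ± 0.48, but its 7 values spanned 0.37 to 3.96 log2 CPM against 3.48 to 5.03 in the 6 libraries with Tifab. None of these passed apart from Tifab and H2afy.

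Primary granule genes had a positive median in TIFAB_KO minus WT and a negative one in dKO minus miR-146a_KO, a difference that was not tested over the list. All 18 tested primary granule proteins, the enzymes and packing proteins that promyelocytes make first, had a positive pooled log2 fold change, against 46.4% of all tested genes. Their median was 0.30 pooled, 0.84 for TIFAB_KO minus WT and -0.10 for dKO minus miR-146a_KO. An unadjusted interaction p under 0.05 was found for 9 of the 18, against 4.23% of all tested genes. In both states at once 8 of the 18 were above 0, against 20.2% of all tested genes. Elane, neutrophil elastase, was at 9.81, 10.3 and 10.1 log2 CPM in TIFAB_KO libraries and 9.79, 8.79 and 8.35 in WT libraries. It was at 9.45, 8.79, 9.98 and 9.21 in dKO libraries and 9.63, 9.03 and 9.01 in miR-146a_KO libraries. Its log2 fold changes were 1.10 ± 0.29 with miR-146a and 0.14 ± 0.24 without, 0.58 ± 0.23 pooled. Prtn3, proteinase 3, had 1.11 ± 0.26 with miR-146a and -0.38 ± 0.21 without, and the difference had an unadjusted p of 0.000801 and did not pass. Clec12a, a myeloid inhibitory receptor, had a positive value in both states, 0.54 ± 0.17 and 0.31 ± 0.20. Gfi1, a repressor needed for granulocyte fate, had 1.31 ± 0.29 with miR-146a and -0.47 ± 0.29 without.

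Mast cell, basophil and eosinophil genes and monocyte and macrophage genes also had positive pooled medians. Among their members, 5 of 22 and 3 of 18 had an unadjusted interaction p under 0.05, against 4.23% of all tested genes. Of 22 tested mast cell, basophil and eosinophil genes 18 were above 0 pooled, against 46.4% of all tested genes. Their medians were 0.21 pooled, 0.81 with miR-146a and -0.11 without. Prg2, the major basic protein of eosinophils, had 1.79 ± 0.51 with miR-146a and -0.32 ± 0.34 without. Of 18 tested monocyte and macrophage genes 15 were above 0 pooled, against the same 46.4%. Their medians were 0.31 pooled, 0.62 with miR-146a and -0.05 without. Genes of late granules and mature neutrophils had the highest pooled median, 0.71 over 12 tested of 20 listed, with 0.69 with miR-146a and 0.30 without, and 0 of the 12 had an unadjusted interaction p under 0.05. Without TIFAB_KO replicate 3 and dKO replicate 3 the pooled medians were 0.23 for late granule, 0.19 for primary granule, 0.03 for mast cell and 0.20 for monocyte genes. With 1 library left out they reached 0.35 without TIFAB_KO replicate 2 for late granule genes and 0.14 without TIFAB_KO replicate 3 for monocyte genes. They reached 0.13 for primary granule and 0.09 for mast cell genes without WT replicate 3. S100a8, the calprotectin subunit, was at 1.64 to 7.31 log2 CPM in libraries lacking Tifab and 2.78 to 4.19 in those with it, so both extremes were in libraries lacking Tifab. Genes of the red cell membrane and of transport had the opposite sign pooled, 17 of 19 tested being below 0, against 53.6% of all tested genes. The globin genes of that list were not among those tested. The median of the 19 was -0.15 pooled, -0.34 with miR-146a and 0.13 without. It was -0.04 without WT replicate 3 and -0.24 without miR-146a_KO replicate 1.

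**Figure D4:**
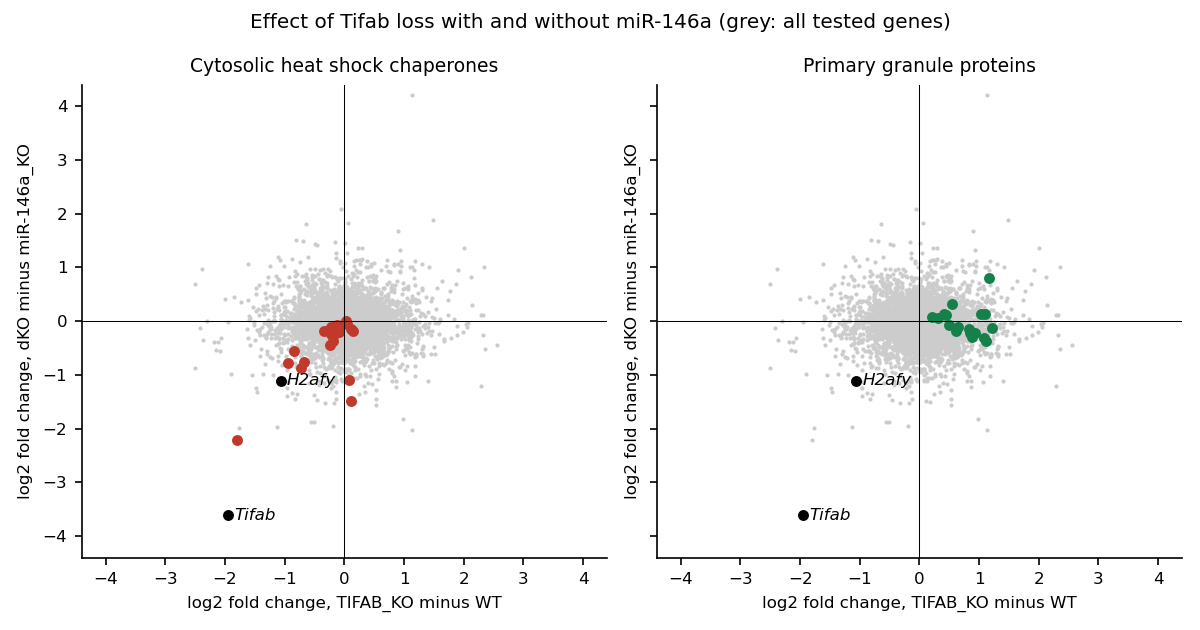
Log2 fold change of Tifab loss without miR-146a (y axis, dKO minus miR-146a_KO) against that with miR-146a (x axis, TIFAB_KO minus WT); grey points are the 11867 tested genes. The 20 chaperone genes (left, red) have medians of -0.19 and -0.25 on the x and y axes, while the 18 primary granule genes (right, green) have medians of 0.84 and -0.10.

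The states could be set side by side because they share no library. Over all 11867 tested genes, the sign of the log2 fold change was the same in both states for 45.1%, and Pearson's r across genes, which are not independent of each other, was -0.02. Without Tifab and H2afy r was -0.03. Of the 524 genes with an unadjusted p under 0.05 in TIFAB_KO against WT (4.42%), 39.3% had the same sign in the other state. Of the 257 such genes in dKO against miR-146a_KO (2.17%), 46.7% did. The overlap was 34 genes, 6.49% of the first list and 13.2% of the second, and 17 of these had the same sign.

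Of those 17 genes, 11 were lower and 6 higher. The lower ones were Tifab, H2afy and Tgfbi of the locus, Bag3, Dnajb4, Dnajb1 and Zfand2a of the heat shock response, and Perp, Rbm44, Errfi1 and Btg1. The higher ones were Ncam1, Stard6, Pisd-ps3, Aoah, Mmp8 and Itga1. Zfand2a and Btg1, an antiproliferative gene, are named here after their values were seen, and Btg1 had -0.42 ± 0.14. Fitted alone, the libraries with miR-146a called 1 gene (0.00843%), Tifab, and those without called 5 (0.0421%), which were Tifab, H2afy, Hspa1a, Hspb1 and the unnamed locus 4930503L19Rik. The last had 0.05 ± 0.21 with miR-146a and 1.28 ± 0.16 without.

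The difference between the states was also tested gene by gene as an interaction, and limma called 0 of 11867 genes. At an unadjusted p under 0.05 there were 502 (4.23%), and limma-voom called 0 as well. Without TIFAB_KO replicate 1, 1 gene passed, the immediate early factor Egr3, with a difference of 3.61 and an adjusted p of 0.0308, and it is named for that value. The pooled effect averages the states whether or not a gene differs between them, so values within each state are given beside the pooled ones for the main groups.

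Other programmes of LK cells had pooled medians near that of all genes. Medians were -0.01 for 30 DNA replication and S-phase genes, -0.01 for 30 G2 and mitosis genes, 0.03 for 24 glycolysis genes and 0.01 for 12 heme synthesis genes. They were -0.02 for 15 erythroid fate factors, -0.01 for 24 megakaryocyte and platelet genes, 0.01 for 27 stem and multipotent progenitor genes and 0.08 for 39 interferon response genes. None of their members was called. In each of these lists the medians within the states had opposite signs, which the pooled median averages. They were 0.19 with miR-146a and -0.09 without for interferon response genes. For megakaryocyte and platelet genes they were -0.09 and 0.10, and for glycolysis genes 0.11 and -0.04. Prom1, a membrane protein of stem and progenitor cells, had 2.29 ± 0.37 with miR-146a and 0.11 ± 0.41 without. The 9 tested B-lineage genes of 16 listed had the lowest median, -0.59, with Ebf1, the B-lineage master factor, at -1.20 ± 0.47 and Dntt, which adds bases to antigen receptor joints, at -1.16 ± 0.61. Ebf1 was at -1.31 to 1.98 log2 CPM in libraries lacking Tifab and -0.38 to 2.60 in those with it, a level of 3 to 47 reads. The list median was -0.72 to -0.34 with each library left out in turn, nearest 0 without dKO replicate 3, and -0.29 without TIFAB_KO replicate 3 and dKO replicate 3. The part of B-lineage cells in the result was not tested.

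**Figure D5:**
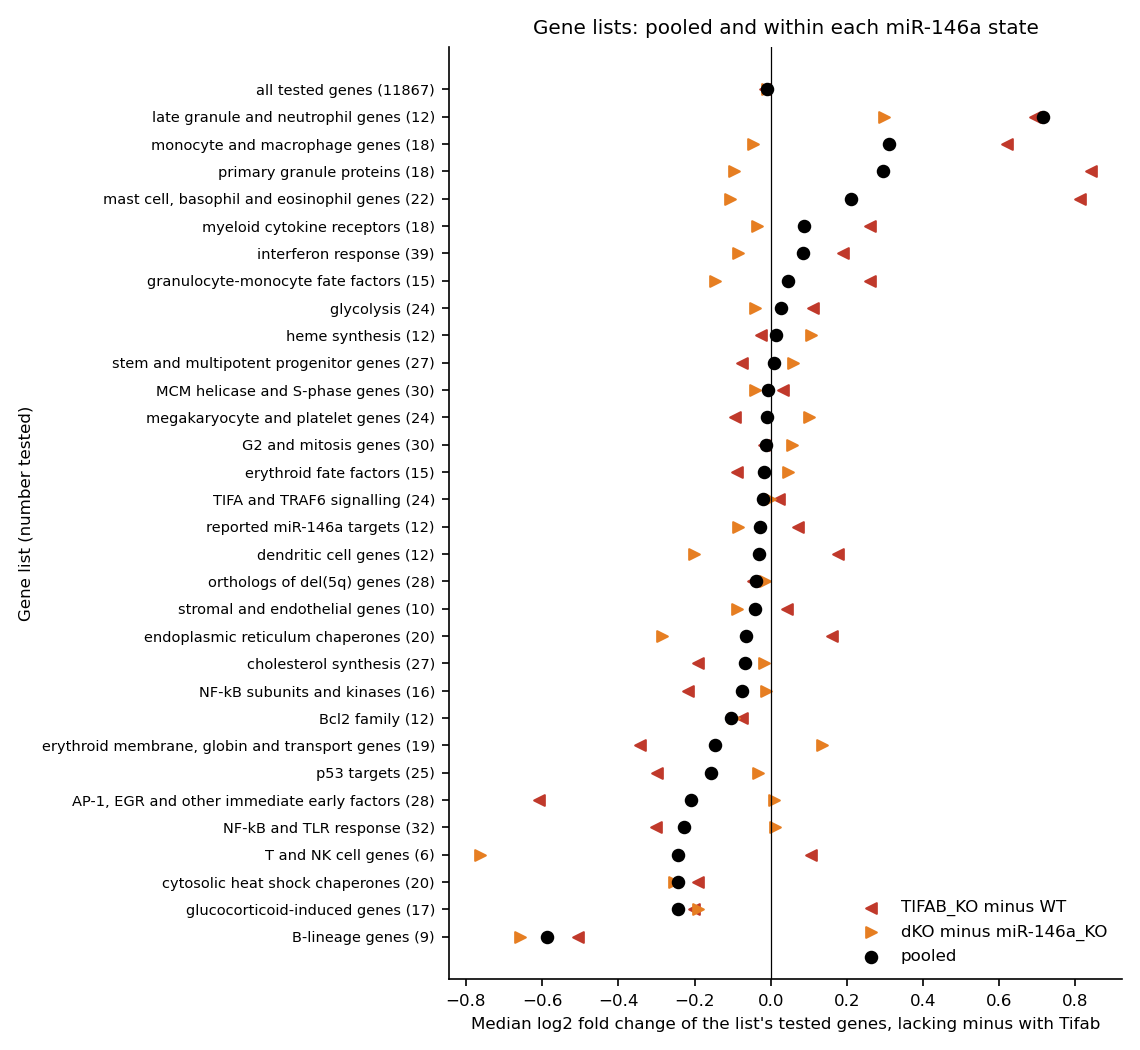
Median log2 fold change, lacking minus with Tifab (x axis), of the tested genes of each list (y axis, number tested in brackets), pooled (black) and within each miR-146a state (red and orange triangles). The pooled median runs from -0.59 for B-lineage genes to 0.71 for late granule and neutrophil genes, and over all 11867 tested genes it is -0.01.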

How the data were processed

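Log2 values of 13 RNA libraries were used. Libraries had been made with the Ovation RNA-Seq System v2 and Nextera XT kits and sequenced on a HiSeq2500, per the labels' protocols. TopHat, featureCounts, limma and the mm10 build are named in the submitters' processing notes, without versions. The deposited values are log2 CPM (0.5 read added per gene and 1 per total, by their steps), and whole reads were recovered within 0.01 read for 100% of values. The table holds 24062 genes, of which 4055 have 0 reads throughout, and 0 sample columns were left unused.

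Genes averaging 0 log2 CPM or more were fitted with limma 3.58.1 in R 4.3.3 as Tifab state plus miR-146a state, with a variance trend (10 residual degrees of freedom) and Benjamini-Hochberg adjustment over 11867 genes. The test was two-sided. The difference between states was fitted with 1 mean per genotype, and each state was also fitted alone. Standard errors follow each ± sign, except for the mean levels of Traf6, which are given with the SD. Gene positions are those of GENCODE M21, matched by symbol for 94.3% of rows. Named genes are Tifab, its neighbours within 1 Mb, called genes, those with the smallest p filling up to 10 per direction, and up to 6 members per list. The members and the gene lists were chosen with earlier results of these data known. Alternatives covered filters, scaling, weights, covariates, the replicate block and each library left out. The steps were tested on simulated data.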

Additional observations from a re-analysis of the deposited data

Results flagged for a closer look

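The dKO group, the one genotype with 4 libraries, was searched for single libraries that lie far from the other 3, over 226 named genes. The gap to the nearest library exceeded the 95% critical value of Dixon's test for 10 genes (4.42%), and chance alone flags about 1 in 20. Values are log2 CPM. In dKO replicate 4, Ncam1 was at 3.10 (4.48 to 4.75 in the other dKO libraries), Ddx46, an RNA helicase of the splicing machinery, at 8.28 (7.87 to 7.91), Cyld, a deubiquitinase of NF-kB signalling, at 5.99 (6.22 to 6.26) and Sharpin, a subunit of the linear ubiquitin ligase, at 4.50 (4.82 to 4.89). In dKO replicate 3, Itga1 was at 3.08 (3.99 to 4.04), Nfkbia, the NF-kB inhibitor, at 6.71 (5.58 to 5.75) and Flt3, a receptor of multipotent and lymphoid progenitors, at 4.53 (6.03 to 6.27). In dKO replicate 1, Nfkbie was at 3.74 (4.03 to 4.05) and Manf, a protein of the endoplasmic reticulum, at 5.27 (4.98 to 5.01). In dKO replicate 2, Klf10 was at 5.40 (5.58 to 5.61).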

How the results depend on the processing

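Tifab and H2afy were called under every setting tried for the pooled fit and under the fit of the libraries without miR-146a, while the libraries with miR-146a alone called Tifab only. The number of called genes, 2 as reported, was 4 with no filter on low values (Capn11 and Hecw1 added), 4 with library quality weights (Ncam1 and Pisd-ps3 added), 1 with miR-146a present only and 5 with miR-146a absent only. It was 6 without TIFAB_KO replicate 1 and WT replicate 1, a choice made after seeing the data. With single libraries left out it was 2 to 4, and the cause was not tested. The log2 fold change of Tifab was -2.97 to -2.65 with single libraries left out. The number of interaction calls, 0 as reported, was 0 to 1 with single libraries left out. Replicate numbers did not pair the libraries. Over 18 same-numbered pairs the correlation of deviations from the group means was -0.20 to 0.23, with 2 pairs over 0.1, and 4 of 12 libraries were most like their own number. With the replicate number as a block the number of called genes was 3, Ncam1 being added (1.41, limma adjusted p 0.00444), and the log2 fold change of Tifab was -2.95. The only library numbered 4, dKO replicate 4, carries no weight in that fit, so both log2 fold changes equal those without it. Of 6472 values recomputed for 225 named-gene results, 200 changed sign in genes called neither in the main fit nor in the alternative. Where a call was involved, 0 changed sign, 1 lost and 10 gained a call. Of 693 list medians, 16 moved by more than their spread.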
